A study of Macaca mulatta with 60 samples.

Results

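Pdk4 and Gyg1 are genes of fuel use in striated muscle, and their transcripts were followed through 5 tissues of the fetal rhesus monkey (Macaca mulatta). Pdk4 was read as the transcript ENSMMUT00000030108 and Gyg1 as ENSMMUT00000007773, which are 2 of the 26149 transcripts in the expression table and were chosen by name, as the genes of glucose use and glycogen synthesis that the study followed in the heart. The tissues were the ventricles (LV on the left and RV on the right), the atria (LA and RA) and, as skeletal muscle, the biceps femoris of the thigh (BFM). They came from 12 female fetuses, with 12 arrays in each tissue and 60 in all. In the early gestation (EG) groups the dams were treated from day 50 to day 100 and in the late gestation (LG) groups from day 100 to term. Bisphenol A (BPA), an endocrine disrupting chemical found in plastics, was given by mouth at 400 µg per kg body weight daily in a piece of fruit, and control dams received the ethanol vehicle alone. With a BPA and a control group in each window there were 4 groups of 3 fetuses. EG fetuses were collected by caesarean section and LG fetuses at necropsy after vaginal birth. Age, birth itself and the mode of delivery therefore cannot be told apart. Below, a change with gestation means LG against EG.

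Pyruvate dehydrogenase is the enzyme complex that admits carbon from glucose to the citric acid cycle. The kinase Pdk4 phosphorylates this complex and switches it off, which spares glucose and favours the oxidation of fatty acids, and Pdk4 mRNA is known to rise in heart and skeletal muscle with fasting, fatty acids and glucocorticoids. Glycogenin 1, the product of Gyg1, is the protein that starts a glycogen particle by attaching the first glucose residues to itself, and it serves as the core on which glycogen synthase builds. The fetal heart draws largely on glucose and lactate and shifts towards fatty acids around birth, while skeletal muscle stores glycogen before birth.

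Levels are log2 values normalized within 1 tissue, so each level below is compared only with levels of the same tissue. Arrays of 1 tissue correlated with one another at a median r of 0.943 to 0.951 in BFM, 0.958 to 0.974 in LA and 0.949 to 0.970 in RA. In LV the array of EG control fetus 2 stood apart at 0.858, and in RV the arrays of LG BPA fetus 12 and LG control fetus 7 did so at 0.848 and 0.902. Myh6, the alpha cardiac myosin heavy chain that marks atrial muscle, lay between 14.30 and 14.96 in every LA and RA array and between 6.28 and 8.49 in BFM, apart from 10.60 in the BFM of fetus 8. In the ventricles Myh6 ran from 5.51 to 14.43. In LV it stepped with gestation, from 5.69 to 7.16 over all EG fetuses to 14.16 to 14.43 in LG controls (log2 fold change in controls 7.71, SE 1.47, limma adjusted p = 0.196), the same arrays in which Pdk4 is compared below, and its part in the Pdk4 change was not tested. Fetuses are numbered 1 to 3 in EG control, 4 to 6 in EG BPA, 7 to 9 in LG control and 10 to 12 in LG BPA, and the number is a sample id that the labels share between tissues, taken here to mark the same animal.

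Pdk4 mRNA was higher in late than in early gestation in all 5 tissues, by 5.83-fold to 11.5-fold in controls. No LG fetus, control or BPA exposed, reached down to the highest EG fetus in any of the 5 tissues. Such an upward separation was found for 22.2% of the transcripts tested in BFM and for 2.55% to 3.17% in the chambers. The plot of Pdk4 levels by tissue shows the Pdk4 step together with the scatter inside each group, which was narrowest in the RA of EG controls (SD 0.11). In pieces of whole tissue such as these, a shift in the share of muscle cells and a shift in the RNA of each cell cannot be told apart.

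In the LV, the chamber that drives the systemic circulation after birth, Pdk4 levels of the EG controls were 8.48, 5.62 and 8.19 and those of the LG controls were 9.52, 11.75 and 11.44. The EG BPA fetuses had LV levels of 8.94, 7.24 and 7.60 and the LG BPA fetuses 11.40, 12.01 and 10.34. EG control fetus 2, whose LV array stood apart, was the lowest of the 12. In the RV, which carries much of the fetal circulation, Pdk4 stood at 7.25, 5.84 and 6.98 in EG controls and at 8.43, 11.34 and 10.89 in LG controls. After BPA the RV levels were 7.39, 6.35 and 6.89 in EG and 11.01, 11.59 and 8.57 in LG. The low LG values of the RV came from fetuses 7 and 12, the pair whose RV arrays stood apart. Myh6 was at 6.47 and 7.63 in those arrays, the lowest of their groups, and its part in these Pdk4 values was not tested.

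In the LA, Pdk4 was at 7.55, 7.06 and 6.35 in EG controls and at 8.96, 10.21 and 9.56 in LG controls, with 7.30, 6.52 and 7.19 in EG BPA and 10.12, 10.46 and 8.82 in LG BPA. The RA gave 7.33, 7.51 and 7.53 in EG controls and 9.42, 10.57 and 10.01 in LG controls, with 7.74, 6.80 and 7.04 in EG BPA and 11.04, 10.41 and 9.52 in LG BPA. In both atria every LG fetus thus stood more than 1 log2 unit above every EG fetus. In the BFM, Pdk4 was at 10.27, 8.59 and 10.06 in EG controls, 9.80, 8.06 and 8.24 in EG BPA, 11.14, 13.85 and 12.51 in LG controls and 13.86, 13.90 and 12.67 in LG BPA. The LG control fetus 7 was again the lowest of its window.

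**Figure D1:**
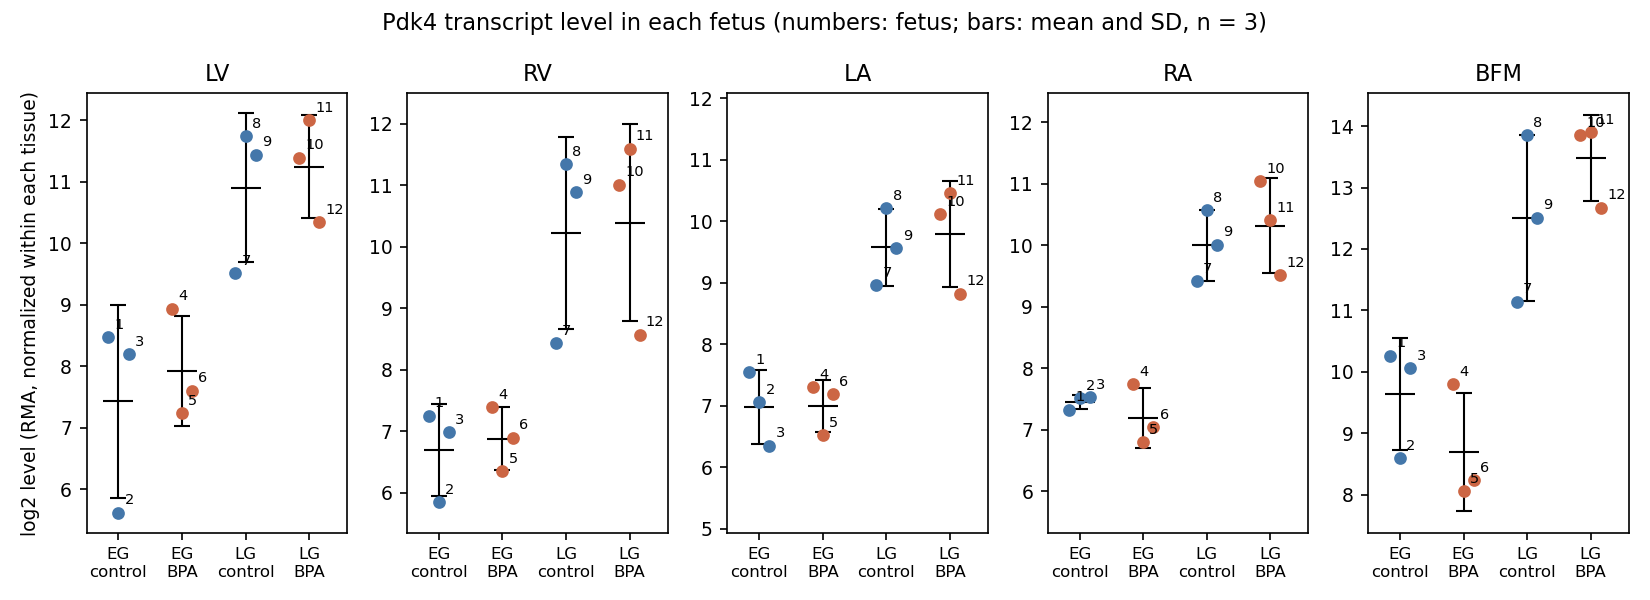
Pdk4 level (log2, normalized within each tissue) of every fetus in the 5 tissues, with the group mean and SD (n = 3) and the fetus number beside each point; all panels span the same number of log2 units but start at different levels. All 6 LG fetuses lie above all 6 EG fetuses in each tissue, by 0.58 in LV and 1.68 in RA at the closest pair.

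The group means of the Pdk4 level rose from EG to LG controls from 7.43 ± 1.58 to 10.90 ± 1.21 for LV and from 6.69 ± 0.75 to 10.22 ± 1.56 for RV (SD, n = 3). In the atria they went from 6.99 ± 0.60 to 9.58 ± 0.62 on the left and from 7.46 ± 0.11 to 10.00 ± 0.58 on the right, and in BFM from 9.64 ± 0.91 to 12.50 ± 1.35 (SD, n = 3). Changes were fitted with limma in each tissue, and a transcript was called where it changed by 1 or more on the log2 scale, up or down, and its unadjusted p was no greater than 0.01. Pdk4 was called in every tissue, but the call was lost without LG control fetus 8 in LV and without EG control fetus 2 in BFM. Its log2 fold change in controls was 3.47 (SE 0.86) for LV, 3.53 (SE 0.79) for RV, 2.59 (SE 0.48) for LA, 2.54 (SE 0.44) for RA and 2.86 (SE 0.71) for BFM. The same criteria called 26.6% of transcripts tested in BFM, against 2.95% for LV, 6.68% for RV (804 transcripts, from 475 without fetus 8 to 1473 without fetus 9), 6.78% for LA and 5.47% for RA, so a call was far more common in skeletal muscle than in the heart. Without EG control fetus 2, whose LV array stood apart, the LV change of Pdk4 was 2.57. With Benjamini-Hochberg adjustment over all transcripts of the limma fit, the adjusted p of Pdk4 was 0.238 for LV, 0.0356 for RV, 0.0198 for LA, 0.0107 for RA and 0.00664 for BFM. An adjusted p of at most 0.05 was reached by 0% of transcripts in LV, where limma gave 1865 of 17628 transcripts an unadjusted p of at most 0.05, and by 1.98% for RV, 2.49% for LA, 2% for RA and 52.3% for BFM. The LV rise of Pdk4 therefore met the fold and unadjusted p criteria but not the adjusted one. The RV rise of Pdk4 lost the adjusted call without the filter on variation (limma adjusted p = 0.0804) and without any 1 of fetuses 1 to 6, 8 and 9 (up to 0.182). The adjusted call was also lost without fetus 3 or 8 in LA (up to 0.0878) and without fetus 1 or 8 in RA (up to 0.0674), and was kept in BFM under each alternative.

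Averaged over control and BPA exposed fetuses, the Pdk4 change with gestation was better determined, as 6 fetuses stood on each side. The log2 fold change was 3.40 (SE 0.61, 10.5-fold) for LV, 3.52 (SE 0.56, 11.5-fold) for RV, 2.70 (SE 0.34, 6.48-fold) for LA, 2.84 (SE 0.31, 7.15-fold) for RA and 3.82 (SE 0.50, 14.1-fold) for BFM. The limma adjusted p was then 0.0235 for LV, 0.00148 for RV, 0.000469 for LA, 0.000145 for RA and 7.12e-05 for BFM, where an adjusted p of at most 0.05 was reached by 1.36%, 12.5%, 9.31%, 8.06% and 64% of transcripts, respectively. The adjusted call in LV was lost without fetus 3, 5, 6, 8, 9 or 10, with an adjusted p of up to 0.0742. The exact permutation test within treatments gave a two-sided p of 0.005 in each tissue, the smallest that its 400 splits allow. The lowest LG fetus exceeded the highest EG fetus by 0.58 for LV, 1.04 for RV, 1.28 for LA, 1.68 for RA and 0.88 for BFM. A complete separation of this kind in the upward direction was shown by 22.2% of the transcripts tested in BFM and by 2.55% for LV, 3.17% for RV, 2.63% for LA and 3.16% for RA. Without fetuses 7 and 12, whose RV arrays stood apart, the RV rise of Pdk4 in controls was 4.42 (SE 0.45).

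Gyg1 mRNA changed with gestation in skeletal muscle and met the criteria in no heart chamber. In the BFM, the Gyg1 level of the EG controls was 11.22, 11.31 and 10.98 and that of the LG controls 13.03, 13.51 and 13.62. The EG BPA fetuses had 11.70, 11.45 and 11.50 and the LG BPA fetuses 12.78, 13.28 and 13.02 in this muscle. All 6 LG fetuses thus stood above all 6 EG fetuses, with 1.08 between the closest pair, a separation that 22.2% of the transcripts tested in BFM showed. The rise in controls was 2.22 on the log2 scale (SE 0.21, 4.65-fold, limma adjusted p = 3.22e-05), and over both treatments it was 1.85 (SE 0.15, 3.59-fold, adjusted p = 2.96e-06) with an exact permutation p of 0.005. In this muscle 26.6% of the transcripts tested were called in controls, and 64% reached an adjusted p of at most 0.05 over both treatments.

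**Figure D2:**
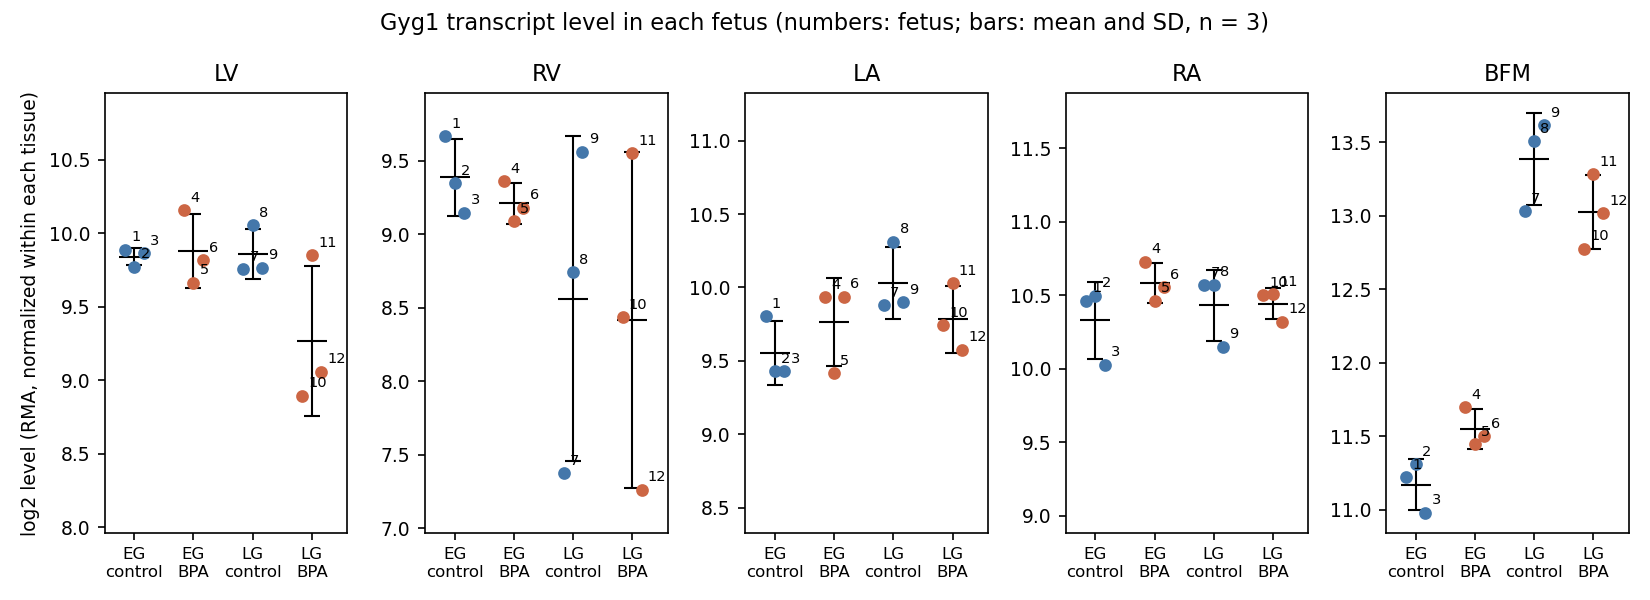
Gyg1 level (log2, normalized within each tissue) of every fetus, with the group mean and SD (n = 3) and the fetus number; all panels span the same number of log2 units but start at different levels. The LG fetuses of BFM lie at 12.78 or above and its EG fetuses at 11.70 or below, while the EG and LG fetuses of LV, LA and RA overlap, with LG BPA fetuses 10 and 12 low in LV, and in RV fetuses 7 and 12 lie low.

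The heart gave a different pattern for Gyg1. In LV the EG controls were at 9.89, 9.77 and 9.86 and the LG controls at 9.76, 10.06 and 9.77, and the log2 fold change was 0.02 (SE 0.28, limma adjusted p = 0.989). The RA stood at 10.46, 10.50 and 10.03 in EG controls and at 10.57, 10.57 and 10.15 in LG controls, a change of 0.10 (SE 0.19, adjusted p = 0.888). In these chambers the EG and LG controls overlapped. In LA the LG controls, at 9.88, 10.31 and 9.90, lay above the EG controls, at 9.81, 9.43 and 9.43, and the change was 0.48 (SE 0.21, limma adjusted p = 0.437). Controls of the windows failed to overlap in the same tissue for 14.8% of all transcripts, in either direction, and the LG BPA fetuses of LA, at 9.74, 10.03 and 9.58, overlapped with the EG BPA fetuses at 9.94, 9.42 and 9.94. The fits kept transcripts whose interquartile range over the 12 arrays was 0.5 or more. Gyg1 did not reach this in LV, LA and RA, where the range was 0.14, 0.40 and 0.13, so its changes there were taken from the fit of all 26149 transcripts. Pdk4 passed it in all 5 tissues.

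In RV the Gyg1 values went the other way, with a wide scatter. EG controls were at 9.67, 9.35 and 9.15, EG BPA fetuses at 9.36, 9.09 and 9.18, LG controls at 7.37, 8.74 and 9.56 and LG BPA fetuses at 8.44, 9.55 and 7.26. The LG range reached from the top of the EG range to almost 2 log2 units below it. The change was -0.83 in controls (SE 0.57, limma adjusted p = 0.397) and -0.81 over both treatments, with an exact permutation p of 0.095. The adjusted p was lower under some alternatives. With array weights the change was -0.68 in controls (limma adjusted p = 0.0304) and -0.67 over both treatments (0.00808), and without LG BPA fetus 11 it was -1.09 over both (0.0458). The lowest values belonged to fetuses 7 and 12, the pair whose RV arrays stood apart. Without this pair the Gyg1 change in RV was -0.23 in controls (SE 0.38, adjusted p = 0.764). Myh6 was also low in the RV of these fetuses, at 6.47 and 7.63, against 12.84 to 14.23 in the other LG fetuses. In the EG fetuses of RV, Myh6 ran from 5.51 to 12.77 and Gyg1 from 9.09 to 9.67. The part of Myh6 in the Gyg1 values was not tested.

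The study's design allows the change of skeletal muscle to be set against that of heart in the same fetuses. A constant offset of a tissue cancels in a change, but a difference between tissues in floor or scale does not. The lowest value of an array was lower in LV than in the other tissues. Gyg1 lay at least 3.92 above the lowest value of its array and Pdk4 at least 2.59, both in RV. The part of floor and scale in the differences between tissues given here and below was not tested. The Gyg1 rise in BFM exceeded the mean change of the 4 heart chambers by 2.27 on the log2 scale in controls (SE 0.39, 95% confidence interval 1.49 to 3.06, limma adjusted p = 0.000101), a 4.84-fold greater change. The criteria called 5.43% of 22430 transcripts in this comparison, and 4.18% reached an adjusted p of at most 0.05. Within each fetus, the Gyg1 value of BFM less that of the mean heart ran from 1.26 to 1.79 in EG and from 3.30 to 3.96 in LG. No fetus of one window entered the range of the other, a separation that 6.09% of transcripts showed in the upward direction. The same difference was 2.37 without fetuses 2, 7 and 12.

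Pdk4 showed no such divergence in controls. Its rise in BFM less that in the heart was -0.18 (SE 0.84, interval -1.86 to 1.51, limma adjusted p = 0.986). This fit does not pair the fetuses, and its interval leaves room for a difference of more than 2-fold in either direction. Within each fetus, Pdk4 in BFM less the mean heart averaged 2.50 (SD 0.37) in EG controls and 2.32 (SD 0.48) in LG controls. The interval is thus wider than pairing by fetus would give. Over both treatments the Pdk4 difference was 0.71 (SE 0.59), with an exact permutation p of 0.075 and an adjusted p of 0.564. When the 60 arrays were paired by fetus, which narrows the error, it was again 0.71 (SE 0.23, limma adjusted p = 0.0503). The rise in ventricles less that in atria was 0.93 for Pdk4 (SE 0.75, interval -0.57 to 2.44, adjusted p = 0.627) and -0.69 for Gyg1 (SE 0.35, interval -1.40 to 0.01, adjusted p = 0.397), in a comparison in which 2.8% of transcripts were called. The Gyg1 value was -0.41 without fetuses 2, 7 and 12. Ventricular cDNA had not been amplified and atrial cDNA had, which cannot be told apart from the chamber.

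Other fuel genes were open to the same reading only where the study had named their transcripts, which left 3, all of them listed by the study for a difference after BPA on these arrays. The transcript listed as fatty acid-binding protein, a carrier of fatty acids inside the cell, was called upward with gestation in controls in LV (log2 fold change 1.25, SE 0.36, limma adjusted p = 0.290) and in BFM (1.10, SE 0.18, limma adjusted p = 0.000672), and the LV call did not hold after adjustment. Its changes in the other chambers were 0.80 (RV), 0.48 (LA) and 0.90 (RA) and were not called. Over both treatments its adjusted p in limma was 0.0255 for LV, 0.0382 for RV, 0.00836 for LA and 0.217 for RA, with log2 fold changes of 1.39, 0.89, 1.87 and 1.29. The LA value rests in part on the selection, because the study listed this transcript for its low level in LA after EG exposure (BPA minus control -2.19, SE 0.56), and those fetuses enter the EG side. Hexokinase-2, which phosphorylates glucose on entry into muscle, was called in the same tissue as Gyg1. It rose in the BFM of controls by 3.26 (SE 0.49, adjusted p = 0.000414) and gave -0.37 for LV, -0.30 for RV, 0.24 for LA and -0.03 for RA, none of them called. Its BFM level was 5.61 to 5.89 in EG, 7.67, 9.66 and 9.44 in LG controls and 5.98, 7.33 and 7.47 in LG BPA, where the difference from control (-2.0, SE 0.49) met the criteria for a call but had a limma adjusted p of 0.479. The EG levels lay 1.33 to 1.62 above the lowest value of their arrays, near the floor of the measurement, so the size of the rise is poorly determined. The transcript of 2-acylglycerol O-acyltransferase 1, an enzyme of triglyceride synthesis, was called in no tissue (log2 fold change -0.71 in BFM, adjusted p = 0.0260, and -0.20 to 0.81 in the heart chambers). Of the 3 transcripts, 2 were thus called upward in BFM, 1 in LV and none in RV, LA or RA. Of the transcripts that passed the filter on variation, 26.6% were called in BFM and 2.95% in LV, in either direction. The transcript of 2-acylglycerol O-acyltransferase 1 did not pass this filter in RV, RA or BFM. The blood marker ALAS2, the heme synthesis enzyme of red cell precursors, changed with gestation by -1.47 to -0.07 in controls, a change called in no tissue. After LG exposure to BPA it was called in LA (2.81, SE 0.84, limma adjusted p = 0.836), where 1.09% of transcripts were. Its part in the Pdk4 and Gyg1 values of LA was not tested.

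Between fetuses of the same group, Pdk4 was among the more variable transcripts and Gyg1, outside RV, was not. The pooled SD of the Pdk4 level within groups was 1.17 for LV, 1.21 for RV, 0.647 for LA, 0.542 for RA and 1.01 for BFM, where the median transcript had 0.580, 0.413, 0.310, 0.337 and 0.257. In BFM 99.2% of transcripts had a smaller SD than Pdk4, in RV 99.0%, in LA 91.7%, in LV 84.8% and in RA 81.9%. Gyg1 had a pooled SD of 0.299 in LV, 0.249 in LA, 0.198 in RA and 0.228 in BFM, which are below the median of their tissues. In RV its SD was 0.810, made up of 0.209 in EG and 1.13 in LG.

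**Figure D3:**
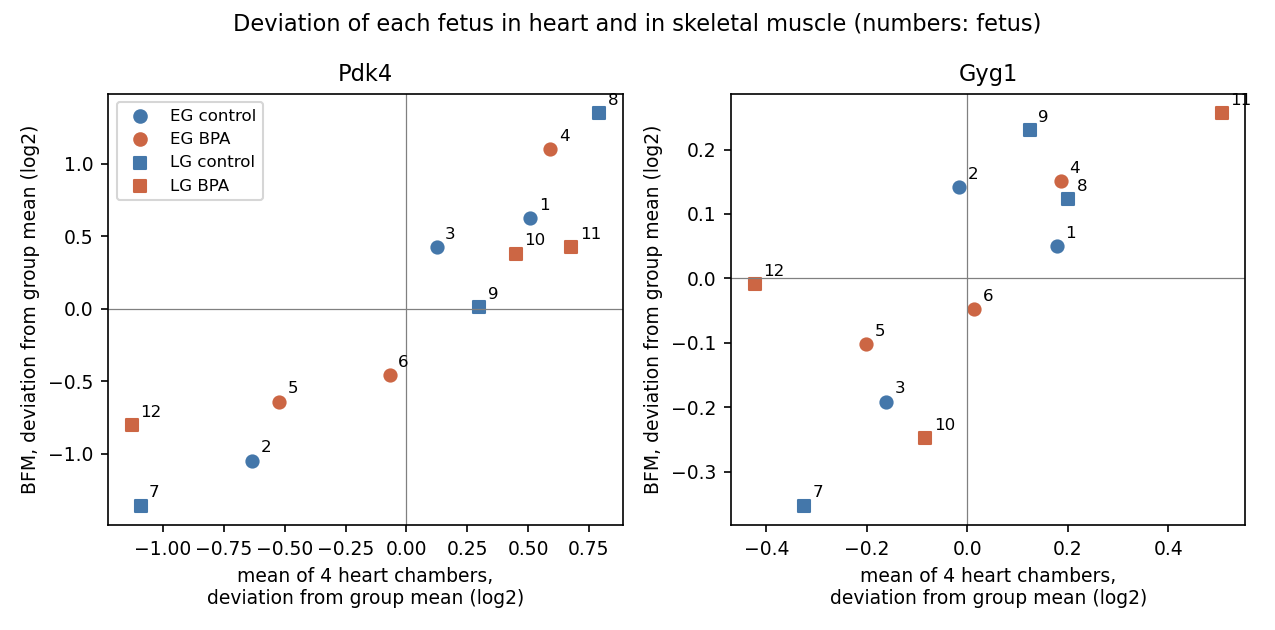
Deviation of each fetus from its group mean (log2) in BFM against the mean of the 4 heart chambers, for Pdk4 and Gyg1; colours mark control and BPA, circles EG and squares LG, and the axes differ in length between the panels. Pdk4 deviations lie along a rising line (r = 0.923 over 12 fetuses), with fetuses 7 and 12 at its lower end and fetuses 4, 8 and 11 at its upper end.

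The spread of Pdk4 was shared between the tissues of a fetus. Deviations of the mean heart from the group mean and those of BFM correlated over the 12 fetuses with r = 0.923 and Spearman's rho = 0.937 (exact permutation p = 0.000772 for both, the smallest that permutation within groups can give; adjusted over 11 relations 0.00424 and 0.00849). Without fetuses 7 and 12, the farthest from the median, r was 0.921. Pdk4 also varied together in LV and RV (r = 0.855, exact permutation p = 0.000772, adjusted 0.00424; rho = 0.706, p = 0.00154, adjusted 0.00849), and r was 0.834 without fetuses 2 and 7. Between LA and RA the Pdk4 deviations gave r = 0.715 (exact permutation p = 0.0556, adjusted 0.0873; rho = 0.664, p = 0.0741, adjusted 0.116) and 0.680 without fetuses 3 and 12. LG control fetus 7 was the lowest of the 6 LG fetuses in LV, RV, RA and BFM. LG BPA fetus 11 was the highest in LV, RV, LA and BFM and held a middle rank in RA.

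For Gyg1 the correlations between tissues were lower, and the difference from Pdk4 was not tested. Deviations of mean heart and BFM gave r = 0.737 (exact permutation p = 0.0440, adjusted 0.0806; rho = 0.748, p = 0.0463, adjusted 0.0849) and 0.847 without fetuses 11 and 12. The relation of LV with RV was r = 0.537 (exact permutation p = 0.310, adjusted 0.370; rho = 0.566, p = 0.111, adjusted 0.153), and 0.247 without fetuses 4 and 11. That of LA with RA was 0.523 (exact permutation p = 0.114, adjusted 0.157; rho = 0.399, p = 0.269, adjusted 0.292), and 0.400 without fetuses 1 and 8. None of these Gyg1 relations held after adjustment.

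Pdk4 and Gyg1 deviated together in the LA of the same fetuses (r = 0.841, exact permutation p = 0.00309, adjusted 0.0113; rho = 0.853, p = 0.00463, adjusted 0.0127), with r = 0.872 without fetuses 3 and 12. In RV the relation was r = 0.860 (exact permutation p = 0.0285, adjusted 0.0785; rho = 0.895, p = 0.00772, adjusted 0.0170) and fell to 0.605 without fetuses 7 and 12. The RV arrays of this pair stood apart and had the lowest Myh6 of their groups. In LV it was r = 0.529 (exact permutation p = 0.0432, adjusted 0.0806; rho = 0.678, p = 0.00386, adjusted 0.0127), and 0.639 without fetuses 2 and 7. Only in LA did both measures pass after adjustment, and in RA and BFM r was 0.285 and 0.394, with an exact permutation p adjusted to 0.370 in each. These tests stand within tissues, and the difference between tissues in the relation was not tested.

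BPA exposure moved neither transcript past the criteria in any tissue or window, so that 0 of the 20 comparisons were called by limma. The criteria called 0.925% of transcripts for LV after EG exposure, 0.615% for RV, 0.582% for LA, 0.439% for RA and 0.267% for BFM, and 0.84%, 0.549%, 1.09%, 0.439% and 0.825% after LG exposure. With 3 fetuses on each side the exact permutation test cannot give a p under 0.1. For Pdk4 the log2 difference, BPA minus control, after EG exposure was 0.50 for LV (95% confidence interval -1.39 to 2.39), 0.19 for RV (-1.50 to 1.88), 0.02 for LA (-1.0 to 1.04), -0.26 for RA (-1.2 to 0.67) and -0.94 for BFM (-2.50 to 0.61). After LG exposure it was 0.35 for LV (-1.55 to 2.24), 0.17 for RV (-1.52 to 1.86), 0.22 for LA (-0.80 to 1.24), 0.32 for RA (-0.61 to 1.26) and 0.98 for BFM (-0.58 to 2.53). The intervals of the ventricles include differences of 2-fold either way. Those of BFM include a 2-fold fall but not a 2-fold rise in EG, and a 2-fold rise but not a 2-fold fall in LG. The study also measured both mRNAs by real-time PCR in the heart chambers after LG exposure, with more fetuses per group. It reported no significant change of either, nor of ventricular glycogen.

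For Gyg1 the intervals were narrower than for Pdk4 in each tissue. After EG exposure they were 0.04 for LV (95% confidence interval -0.59 to 0.66), -0.18 for RV (-1.40 to 1.05), 0.21 for LA (-0.26 to 0.68), 0.25 for RA (-0.17 to 0.67) and 0.38 for BFM (-0.09 to 0.84). The EG BPA fetuses of BFM all lay above the EG controls, the single comparison of the 20 without overlap, with an exact permutation p of 0.1. Such a gap between these groups, in either direction, was found for 11.6% of the transcripts tested in BFM. After LG exposure Gyg1 differed by -0.59 in LV (-1.22 to 0.03), where fetuses 10 and 12 were at 8.89 and 9.06 and fetus 11, at 9.85, was among the controls. Among the LG arrays of LV the markers moved with these values. Myh6 was at 7.62 and 5.56 in fetuses 10 and 12, against 13.45 in fetus 11 and 14.16 to 14.43 in the LG controls. ALAS2 was at 10.79 and 9.97 in fetuses 10 and 12, against 8.31 in fetus 11 and 7.76 to 9.08 in the LG controls. In the EG fetuses of LV, Myh6 was low as well, at 5.69 to 7.16, while Gyg1 was at 9.66 to 10.16 and ALAS2 at 7.75 to 8.93. Low Myh6 thus did not go with low Gyg1 over all LV arrays. The part of either marker in the Gyg1 difference was not tested. The other LG differences were -0.14 for RV (-1.37 to 1.08), -0.25 for LA (-0.72 to 0.22), 0.01 for RA (-0.41 to 0.43) and -0.36 for BFM (-0.83 to 0.10). In BFM the Gyg1 difference in LG less that in EG was -0.74 (SE 0.30, interval -1.40 to -0.08, limma adjusted p = 0.999). For Pdk4 the same contrast was 1.92 (SE 1.00, limma adjusted p = 0.999).

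**Figure D4:**
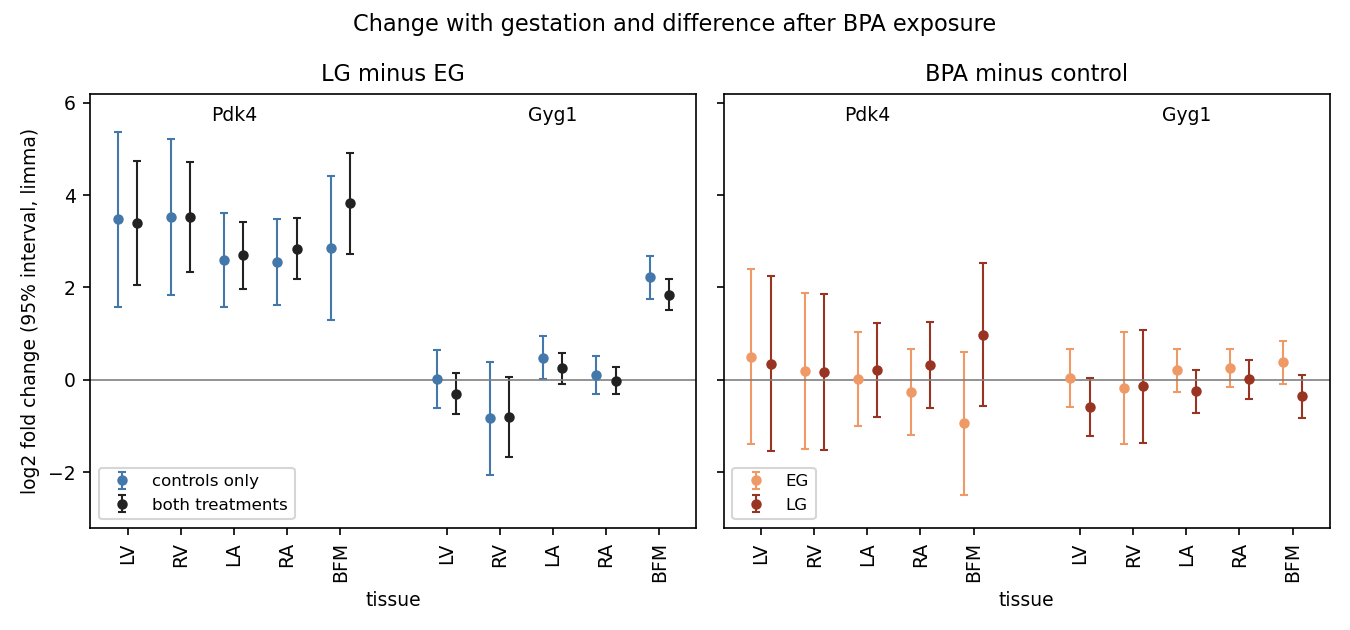
Log2 fold changes with 95% confidence intervals from limma for Pdk4 and Gyg1 in each tissue, as LG minus EG (left, controls only and both treatments) and BPA minus control (right, EG and LG). Every Pdk4 interval for gestation lies above 0, Gyg1 is clearly above 0 in BFM alone of the tissues over both treatments, and every BPA interval includes 0.

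Since the Pdk4 deviations of heart and BFM ran together, the effect of BPA was also read as the value of BFM less that of the mean heart in each fetus, a comparison made after these values had been seen. For Pdk4 this difference was 2.62, 2.09 and 2.80 in EG controls and 1.95, 1.33 and 1.06 in EG BPA. In LG it was 2.06, 2.88 and 2.03 in controls and 2.97, 2.78 and 3.36 after BPA. The EG groups did not overlap, with BPA below control, while the LG groups overlapped with the BPA mean above. Paired by fetus, BPA minus control was -1.05 in EG (SE 0.32, interval -1.76 to -0.35) and 0.71 in LG (SE 0.32, interval 0.01 to 1.41), and the LG difference exceeded the EG difference by 1.77 (SE 0.46, interval 0.78 to 2.76). The EG difference and the contrast of windows met the criteria for a call. These criteria called 0.321% of transcripts in the EG comparison and 0.673% in the contrast of windows. The limma adjusted p was 1.00 in each, so neither held over all transcripts.

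**Figure D5:**
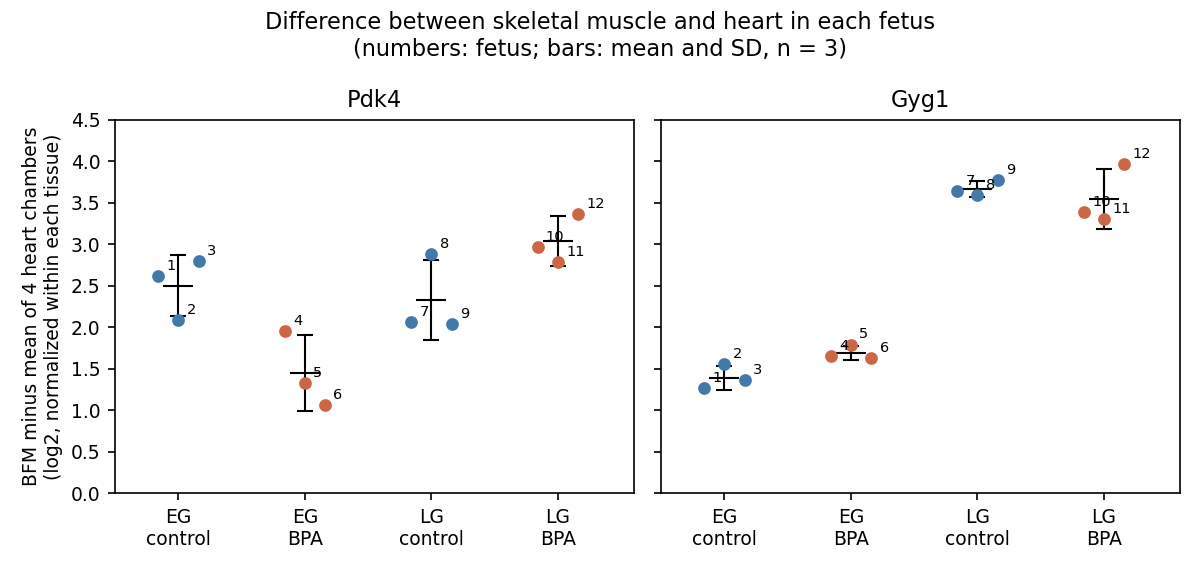
Log2 value of BFM less the mean of the 4 heart chambers in each fetus, for Pdk4 and Gyg1, with the group mean and SD (n = 3); the place of 0 has no meaning because tissues were normalized separately. Pdk4 is lower in EG BPA than in EG control fetuses, and Gyg1 steps from 1.26 to 1.79 in EG up to 3.30 to 3.96 in LG in both treatments.

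The exact permutation test gave the window contrast of Pdk4 a two-sided p of 0.01 over 400 splits, and 0.1 for EG and 0.2 for LG alone. Without pairing, in the fit of 60 arrays, the SE was 0.84 for each window and 1.18 for the contrast, and none of the differences met the criteria, so the calls for Pdk4 rest on the pairing by fetus. The check of that pairing, given with the processing, was weak between LV and BFM. With the pairing, the EG call was lost when fetus 1, 3, 5 or 6 was left out. A gap between the EG groups in this measure was found for 10.4% of transcripts. For Gyg1 the same reading gave 0.30 in EG (SE 0.23) and -0.12 in LG (SE 0.23) when paired by fetus, and neither was called. The EG BPA fetuses, at 1.65, 1.79 and 1.63, lay above the EG controls, at 1.26, 1.55 and 1.36, with an exact permutation p of 0.1.

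The transcripts whose profile was most like each gene were found as the mean over the 5 tissues of the correlation across 12 arrays, a description in which the windows and the fetuses are shared. The profile closest to Pdk4 was that of ENSMMUT00000014749, with a mean r of 0.919 and 0.879 to 0.984 in single tissues. Among 5 transcripts named in the main tables of the study, Thrb, the thyroid hormone receptor beta, was nearest to Pdk4 at 0.666 (0.508 to 0.852). For Gyg1 the closest was ENSMMUT00000003076 at 0.867 (0.763 to 0.951), and Myh6 was the nearest of those 5 at 0.426 (0.244 to 0.684). The median over all transcripts was 0.00505 for Pdk4 and -0.0549 for Gyg1. Pdk4 and Gyg1 had a mean r of 0.235 with each other, from -0.219 to 0.847 in single tissues.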

How the data were processed

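Total RNA of 5 tissues from 12 fetuses was hybridized by the authors to custom NimbleGen arrays designed on the rhesus assembly Mmul_1. The authors deposited log2 values, 1 per transcript, that they had obtained by robust multi-array averaging within each tissue. Scanner intensities were not used here. LV and RV cDNA was not amplified, LA and RA cDNA was, each chamber had a slide of its own that held all 4 groups, and the preparation of BFM is not given in the sources used here. Arrays carry no read depth, and their number limits the precision. The labels give arrays of the 5 tissues a shared sample id, which was taken to mark the same fetus. As a check, deviations from the group mean over 22430 transcripts were correlated between tissues, and in 92 of 120 cases an array correlated best, within its group, with the array of its own number (r -0.12 to 0.44 for shared numbers). With 3 arrays to choose from, 1 match in 3 would come by chance. The count was 5 of 12 for LV with RA and for LV with BFM, and 8 to 12 of 12 for the other pairs of tissues. The check was therefore weak for LV with RA and with BFM.

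For each tissue, limma 3.58.1 in R 4.3.3 fitted the mean of each group, over transcripts whose interquartile range reached 0.5. A member that failed this filter was taken from the unfiltered fit. Changes were set against each other between tissues in 1 fit of all 60 arrays with 20 means, over the 22430 transcripts that passed the filter in at least 1 tissue, and again as differences per fetus. Calls followed the study's criteria (a change of 1 or more on the log2 scale and an unadjusted p no greater than 0.01), with Benjamini-Hochberg adjusted p-values beside them. Exact permutation tests were two-sided. Array weights used statmod 1.5.0. The scripts were tested on simulated data. The named transcripts are Pdk4, Gyg1, the fuel transcripts that the study names, and, for each member, the transcripts most like it in profile, of which 1 unnamed and 1 named are given. The members and lists were chosen with earlier results of these data known. The 2 further Gyg1 transcripts that the study lists were not analysed here. A longer list of pathway genes and one of cell type markers were not used, because the reference tables given do not pair transcript identifiers with symbols and the study's own tables pair only the transcripts they list. Of the markers, Myh6 and ALAS2 were read through those tables. Gene symbols PDK4 and GYG1 belong to ENSMMUG00000021389 and ENSMMUG00000005521 in the gene table used. The alternatives were other filters, the compared groups alone, trend and robust prior variance, further quantile normalization, median centring, array weights, adjusted p-values, the replicate block and each fetus left out.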

Additional observations from a re-analysis of the deposited data

Results flagged for a closer look

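The gestational change of Gyg1 in controls differed between skeletal muscle and heart: the rise in BFM exceeded the mean change of the 4 chambers by 2.27 on the log2 scale (SE 0.39, limma adjusted p = 0.000101), and the value with the fetuses paired was the same, with an SE of 0.23 and an adjusted p of 0.000141.

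The BPA difference of Pdk4 in BFM less heart was 1.77 higher in LG than in EG (1.77, SE 0.46, limma adjusted p = 1.00 with the fetuses paired; exact permutation p = 0.01). It met the criteria only with the pairing. The comparison was made after the values had been seen.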

How the results depend on the processing

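Pairing by fetus (the replicate block, which rests on the shared sample id) left the Gyg1 difference between BFM and heart at 2.27 and the Pdk4 one at -0.18, changed the number of transcripts called from 1219 to 1530 there and from 629 to 415 in ventricles against atria, and brought the added Pdk4 comparisons of BPA in BFM less heart, -1.05 in EG and 1.77 between windows, past the criteria. With a fetus left out in turn, the paired EG value of Pdk4 ran from -1.31 to -0.86 and was called in 8 of 12 cases, lost without fetus 1, 3, 5 or 6, and the window contrast ran from 1.57 to 2.05, called in 12 of 12. The pairing changed no other call of the members.

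The Pdk4 rise in LV controls (3.47) lost its call when an adjusted p of at most 0.05 was required, and ranged from 2.57 to 4.17 with a fetus left out (3.05 and lost, just past the limit on p, without LG control fetus 8). The Pdk4 rise in BFM controls ranged from 2.18 to 3.54 (2.33 and lost, just past the limit on p, without EG control fetus 2). The Gyg1 change in ventricles less atria ranged from -1.02 to -0.37 and passed the criteria only without LG control fetus 9. No result changed direction beyond its error. Transcripts called for gestation numbered 520 in LV, 804 in RV, 536 in LA and 510 in RA. With an interquartile range of at least 1 they numbered 219, 392, 242 and 251. With the compared groups alone LV had 286, and with array weights LV had 983 and RV 2756. The RV count was also 524, 513, 503, 475, 1473 and 1315 without fetus 2, 3, 7, 8, 9 and 12, so its share called is loosely set. The Pdk4 adjusted p in controls ranged over all alternatives from 0.0681 to 0.602 (LV), 9.55e-07 to 0.182 (RV), 0.0103 to 0.0878 (LA), 0.00743 to 0.0674 (RA) and 0.00265 to 0.0296 (BFM), and that of Gyg1 from 3.17e-06 to 0.000912 in BFM and 0.0304 to 0.898 in RV. Over both treatments it ranged from 0.00472 to 0.0742 for Pdk4 in LV and from 0.00808 to 0.608 for Gyg1 in RV.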
